A study of Mus musculus with 9 samples.

Results

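Immunoglobulin genes encode the heavy and light chains of antibodies. The members described here are all probe sets whose gene symbol starts with Igh (heavy chain), Igk (kappa light chain) or Igl (lambda light chain), leaving out Ighmbp2, Iglon5 and Igll1, which are not antibody chain genes. The rule found 56 of the 45101 probe sets on the array. Of these, 43 carried 1 symbol, over 20 distinct symbols, and 13 carried several symbols, all of them immunoglobulin symbols. By class, 18 probe sets were annotated to a heavy chain constant region gene, 1 to the heavy chain variable segment Ighv14-2, 4 to several heavy chain symbols, 29 to kappa and 4 to lambda.

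The values came from 9 Affymetrix arrays of colonic mucosa of male C57BL/6 mice aged 6 weeks, kept in a pathogen-free environment. Wild-type mice (WT), Gas-/- mice (GasKO) and hGAS transgenic mice (hGAS) contributed 3 arrays each. By its name the knockout lacks the mouse gastrin gene, and the labels give neither the promoter of the hGAS transgene nor the number of founder lines. The labels leave unsaid whether an array held 1 mouse or a pool and whether replicates came from different mice. The p-values below therefore measure the spread between these arrays, which may be partly technical. The values are log2 signals made with GCRMA, and a value under 4 is described as near background.

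An antibody is built from paired heavy and light chains, and each light chain is either kappa or lambda. B cells assemble the variable part of each chain from V, D and J segments. The constant part of the heavy chain sets the class: Ighm encodes the mu chain of IgM, Ighg3 the gamma chain of IgG3 and Igha the alpha chain of IgA. Plasma cells, the antibody-secreting descendants of B cells, hold very large amounts of these transcripts. In the colon most of them lie in the lamina propria and make IgA, which the epithelium carries into the lumen with the polymeric immunoglobulin receptor, Pigr. In mice most antibodies carry kappa light chains. A probe set for a V segment, or one ending in _x_at or _s_at, can also bind transcripts of related segments, so each symbol names the array's annotation rather than a rearranged antibody. Of the 56 members, 30.4% ended in _x_at, against 5.42% of all probe sets that are not controls.

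Array medians ranged from 4.12 to 4.15, and the share of probe sets at or above log2 4 ranged from 50.8% to 51.0% of those on an array. The tissue label could be set against markers. The epithelial genes Epcam, Vil1, Krt8, Krt20, Cdh1, Cdx2, Muc2 and Tff3 were above 4 on every array. The smooth muscle genes Myh11, Des and Acta2 were high too, with WT means of 13.22, 12.16 and 13.9, against 12.56 for Vil1. How much muscle the samples held was not tested. The T cell receptor gene Cd3e was near background on all arrays. For Gapdh, the 3' minus 5' difference of its control probe sets (log2), a sign of RNA quality, ran from -0.18 to -0.14 in WT, from -0.12 to -0.09 in GasKO and from -0.15 to -0.07 in hGAS. It therefore separated WT from GasKO. The same difference for actin ran from 0.76 to 0.89 in WT, from 0.87 to 0.94 in GasKO and from 0.88 to 0.94 in hGAS, so its groups overlapped. The part of RNA quality in the immunoglobulin values was not tested.

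WT replicate 3 stood apart from the other WT arrays for the members. Of the 35 members that passed the filter (at least 3 arrays at log2 4 or more), it held the lowest WT value for 29 and the lowest value of all 9 arrays for 27. The mean over these 35 of the log2 value minus the probe set's mean over 9 arrays was -0.40, -0.87 and -1.70 on WT replicates 1, 2 and 3. It was 1.33, 1.33 and 0.89 on the GasKO arrays and -0.48, -0.25 and 0.13 on the hGAS arrays. Thus the GasKO arrays were the highest in this mean, and hGAS replicate 1 lay within the WT range. WT replicate 3 also stood apart in tissue markers. The same mean over 11 epithelial genes was -0.034, 0.0059 and -0.17 on WT replicates 1, 2 and 3, the last being the lowest of 9 arrays. Over 7 smooth muscle genes it was -0.014, 0.046 and 0.18, the last being the highest. The part of tissue composition in the immunoglobulin values was not tested. Counts with and without WT replicate 3 are given beside each comparison.

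**Figure D1:**
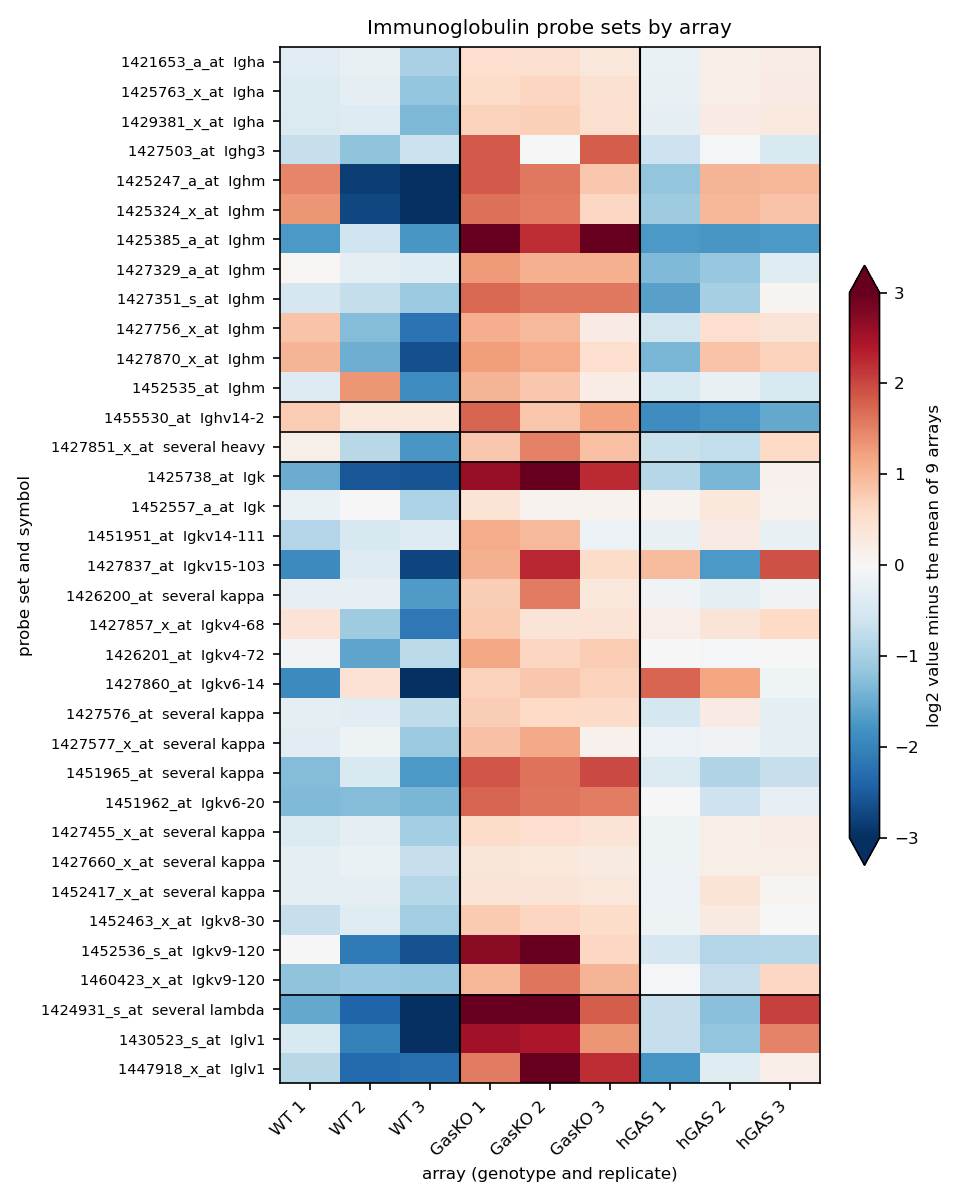
Log2 value minus the mean of 9 arrays for each of the 35 members tested (rows, by class, labelled with probe set and symbol) on each array (columns, by genotype and replicate); colours stop at -3 and 3. The 3 GasKO columns hold most of the high values, and WT replicate 3 holds the lowest value for 27 of the 35.

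Of the remaining 21 members, 20 were below 4 on all 9 arrays, with values from 2.18 to 3.72. They included 3 of the 4 Ighg3 probe sets (1426198_at, 1426199_x_at and 1447998_at), 3 Ighm probe sets (1426196_at, 1427869_at and 1451949_at), 3 of the 4 with several heavy chain symbols and the lambda probe set 1427292_at. The other, 1427757_at, annotated to Igk, read between 2.43 and 2.45 on 7 arrays, but 3.57 on GasKO replicate 1 and 4.77 on GasKO replicate 2. Among the 35 that passed, 19 were at 4 or above on all 9 arrays. Another 4 (1425385_a_at, 1451962_at, 1427576_at and 1427577_x_at) passed through GasKO arrays alone, so their difference from the other groups is partly set by the filter.

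In GasKO against WT, 26 of the 35 members tested rose and 0 fell (limma, Benjamini-Hochberg adjusted p under 0.05 over 23136 probe sets). At an unadjusted p under 0.05, 34 were higher and 0 lower. Of all probe sets tested 11.3% were called in this comparison, 6.03% higher and 5.31% lower. The 26 include the 4 members that passed the filter through GasKO arrays alone, as do the 29 without overlap given below. The log2 change was above 0 for all 35, with a median of 1.68 against 0.0063 for all probe sets tested. The rises covered 7 of 12 heavy chain constant region probe sets, Ighv14-2, the tested probe set with several heavy chain symbols, 14 of 18 kappa and 3 of 3 lambda probe sets. The arrays of both groups did not overlap for 29 of the 35, all higher in GasKO, where 15.8% of all probe sets were higher without overlap. Without WT replicate 3, 22 were called, and 18 of the 26 kept their call in each of the 9 fits that left out 1 array. Of the 9 not called, 8 were called in at least 1 such fit. In bulk mucosa, more antibody-producing cells and more RNA per cell cannot be told apart.

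Against WT, hGAS showed few calls: Igkv6-20 rose and Ighv14-2 fell, 2 of 35, where 0.761% of all probe sets tested were called, 0.376% higher and 0.385% lower. Igkv6-20 was near background in both groups. At an unadjusted p under 0.05, 15 were higher and 2 lower. The log2 change was above 0 for 30 of the 35, with a median of 0.70 against 0.0023 for all. For 15 members every hGAS array was above every WT array, and for 2 every hGAS array was below (8.42% and 8.58% of all probe sets). Without WT replicate 3 only Ighv14-2 was called, 1 of 35. With 4 called without WT replicate 2, this count moved by more than 1.5 times in both directions. Another 5 members were called in at least 1 fit that left out 1 array. Same-numbered WT and hGAS arrays deviated together in all 3 pairs (correlations 0.11 to 0.19), and with the replicate number as a block 3 members were called, Igkv8-30 (1452463_x_at) being added.

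In hGAS against GasKO, 13 of the 35 fell and 0 rose, where 14.9% of all probe sets tested were called, 7.09% higher and 7.8% lower. Without adjustment of p, 21 were lower and 0 higher. The median log2 change was -1.01 against -0.0032 for all, and 1 of the 35 changes was above 0. In 23 members every hGAS array lay below every GasKO array, compared with 18.2% of all probe sets. The count was 19 without WT replicate 3 and 8 without hGAS replicate 1, and 11 of the members not called were called in at least 1 fit of that kind. All 13 had also risen in GasKO against WT; those comparisons share the GasKO arrays, so their values are given side by side and not as separate evidence. The F test over the 3 genotypes called 23 of the 35 (14.4% of all probe sets), and 12 without GasKO replicate 1.

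The group means stood in the order GasKO, hGAS, WT from high to low for 29 of the 35, an order held by 18.6% of all probe sets tested. For 5 members hGAS was lowest: Ighv14-2 and the Ighm probe sets 1425385_a_at, 1427329_a_at, 1427351_s_at and 1452535_at. Their order, GasKO, WT, hGAS, was held by 14.3% of the members and 21.1% of all probe sets tested. The order WT, GasKO, hGAS was held by 0 members and 11.2% of all, so a lowest hGAS mean was less frequent among the members. Among the 5, hGAS differed from WT past the threshold for Ighv14-2 only. For Igkv6-14 (1427860_at) hGAS was highest, without a call in any comparison on all 9 arrays.

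**Figure D2:**
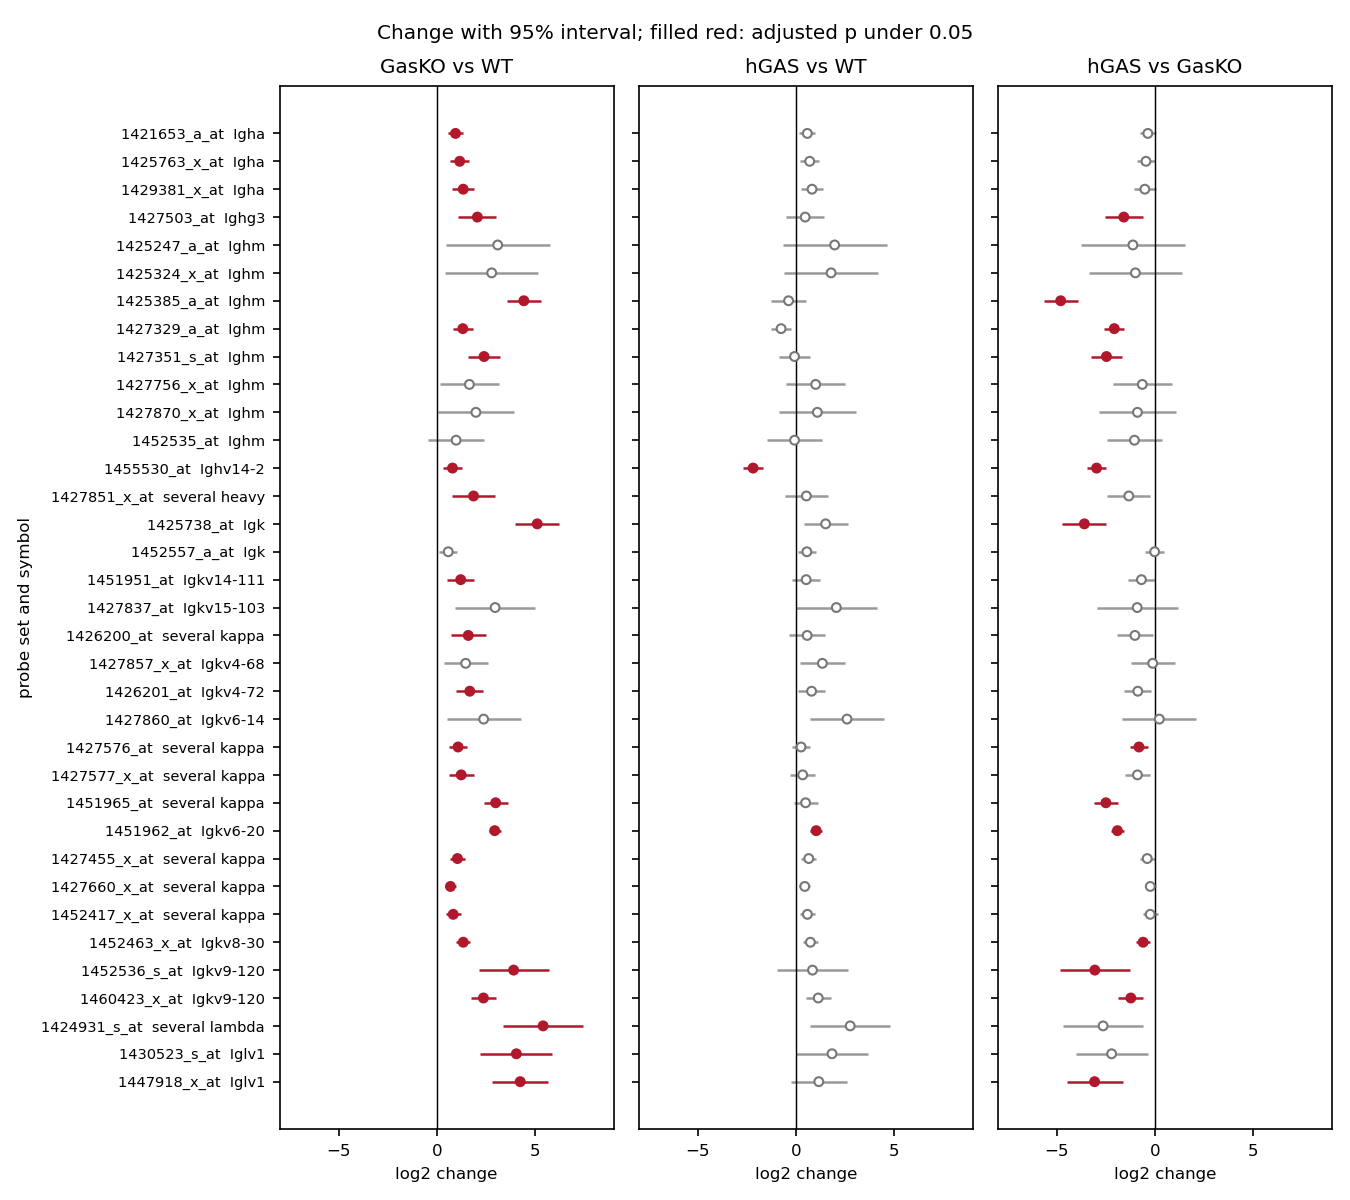
Log2 change (horizontal axis) of the 35 members tested in each comparison, with limma's 95% interval; filled red points have an adjusted p under 0.05. Points lie right of 0 for all 35 in GasKO vs WT, with 26 filled, while 2 are filled in hGAS vs WT and 13, all left of 0, in hGAS vs GasKO.

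Igha, which encodes the heavy chain of IgA, the main antibody class of the gut, was measured by 3 probe sets with signals near the top of the scale. Probe set 1421653_a_at read 13.79, 13.90 and 13.17 on the WT arrays, 14.64, 14.61 and 14.48 on the GasKO arrays and 13.93, 14.31 and 14.37 on the hGAS arrays. Every hGAS array lay between the highest WT and the lowest GasKO array. In GasKO it rose by log2 0.95 (SE 0.18, adjusted p = 0.00822 by limma), a 1.94-fold difference. In hGAS against WT the change was 0.58 (SE 0.18, adjusted p = 0.187), and in hGAS against GasKO -0.38 (adjusted p = 0.2).

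The other Igha probe sets, 1425763_x_at and 1429381_x_at, rose in GasKO by log2 1.17 (adjusted p = 0.00665) and 1.35 (adjusted p = 0.00676). In hGAS against WT they stood at 0.70 and 0.82 (adjusted p = 0.176 and 0.17). Thus all 3 Igha probe sets were called in GasKO against WT and none in either comparison of hGAS, although without WT replicate 3 all 3 were called lower in hGAS against GasKO (adjusted p from 0.0287 to 0.0489). Their WT spread came mainly from replicate 3: 1429381_x_at read 12.75, 12.78 and 11.83 on the WT arrays, against 13.87, 13.89 and 13.65 on the GasKO arrays. Leaving out any 1 array kept the call of all 3 in GasKO against WT, and the change of 1421653_a_at then ran from 0.73 to 1.10.

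Ighm, which encodes the heavy chain of IgM, the class that B cells carry before switching, was covered by 8 tested probe sets that fell into different patterns. For 1427329_a_at the WT arrays read 7.88, 7.57 and 7.47, the GasKO arrays 9.12, 8.90 and 8.90 and the hGAS arrays 6.51, 6.69 and 7.47. The GasKO arrays were the highest. Replicates 1 and 2 of hGAS lay clearly below all WT arrays, while hGAS replicate 3 was at the level of WT replicate 3. The rise in GasKO was log2 1.33 (SE 0.22, adjusted p = 0.00436), or 2.51-fold. The fall in hGAS against GasKO was larger, at -2.08 (SE 0.22, adjusted p = 2.29e-04), or 4.24-fold, while hGAS against WT stood at -0.76 (SE 0.22, adjusted p = 0.163). Without hGAS replicate 3 the latter was called, at -1.05 (adjusted p = 0.0191).

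Probe set 1427351_s_at of Ighm read 6.87, 6.67 and 6.26 in WT, 9.11, 8.96 and 8.95 in GasKO and 5.75, 6.37 and 7.46 in hGAS. The hGAS arrays spanned the WT range, with replicate 3 above it and replicate 1 below it. Its rise in GasKO was log2 2.41 (SE 0.35, adjusted p = 0.00208) and its fall in hGAS against GasKO -2.48 (SE 0.35, adjusted p = 0.00145). The change in hGAS against WT was -0.07 (adjusted p = 0.96), and its sign turned in several fits that left out 1 array.

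A further Ighm probe set, 1425385_a_at, was near background everywhere but in GasKO. It read 2.40, 3.52 and 2.38 in WT, 7.81, 6.33 and 7.46 in GasKO and 2.39, 2.38 and 2.39 in hGAS. The change was log2 4.43 in GasKO against WT (SE 0.39, adjusted p = 7.54e-05) and -4.81 in hGAS against GasKO (SE 0.39, adjusted p = 3.88e-05), and both calls held with any 1 array left out. Folds against a background level depend on that level, and this probe set passed the filter through GasKO arrays alone.

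The Ighm probe sets 1425247_a_at, 1425324_x_at, 1427756_x_at and 1427870_x_at shared another array pattern. For 1425247_a_at the values were 8.60, 4.31 and 3.39 in WT, 8.96, 8.71 and 7.94 in GasKO and 5.94, 8.14 and 8.12 in hGAS. WT replicate 1 thus lay within the GasKO range, while WT replicates 2 and 3 and hGAS replicate 1 were low. The same arrays were low for the other 3: 1427870_x_at read 8.91, 6.41 and 5.24 in WT and 6.52, 8.72 and 8.58 in hGAS. None of the 4 was called in any comparison, with log2 changes of 1.66 to 3.10 in GasKO against WT and adjusted p from 0.132 to 0.185. Without WT replicate 1 all 4 were called in that comparison, with changes of 2.53 to 4.69 and adjusted p from 0.00323 to 0.024. These probe sets carry the same symbol and the same arrays stand out in each, so they are not 4 independent measurements.

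The last tested Ighm probe set, 1452535_at, read 5.41, 7.14 and 3.95 in WT, 6.82, 6.60 and 6.03 in GasKO and 5.35, 5.59 and 5.34 in hGAS. WT replicate 2 was above all other arrays, and no comparison was called (adjusted p from 0.304 to 0.979). In GasKO against WT the change was 0.99, and without WT replicate 2 it was 1.80 and called (adjusted p = 0.027).

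Ighg3, which encodes the heavy chain of IgG3, passed the filter with 1 of its 4 probe sets. Probe set 1427503_at read 3.38, 2.87 and 3.43 in WT, 5.91, 4.09 and 5.89 in GasKO and 3.45, 4.01 and 3.62 in hGAS. GasKO replicate 2 lay just above the hGAS arrays and the other GasKO arrays well above them. It rose in GasKO by log2 2.07 (SE 0.43, adjusted p = 0.014) from near background and fell in hGAS against GasKO by -1.60 (SE 0.43, adjusted p = 0.0366). The first call was lost without WT replicate 2, GasKO replicate 1 or GasKO replicate 3 (adjusted p up to 0.0582), and the change was 2.67 without GasKO replicate 2. The other call held in 3 of 9 such fits, and the change was -2.20 without GasKO replicate 2.

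Ighv14-2, a heavy chain variable segment, showed a pattern of its own among the members, with hGAS well below both other groups. Probe set 1455530_at read 6.67, 6.22 and 6.22 in WT, 7.65, 6.74 and 7.13 in GasKO and 4.05, 4.14 and 4.37 in hGAS. No hGAS array came within 1 log2 unit of any other array. It fell in hGAS by -2.18 against WT (SE 0.22, adjusted p = 0.00355) and by -2.98 against GasKO (SE 0.22, adjusted p = 1.98e-05), or 7.92-fold, and both calls held with any 1 array left out. The hGAS values lay just above the level described as near background, so the size of these falls depends on that level. The rise in GasKO against WT was log2 0.80 (SE 0.22, adjusted p = 0.0452), and that call held in 2 of 9 such fits, with adjusted p up to 0.133 without WT replicate 2.

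Among the probe sets with several heavy chain symbols, 1427851_x_at read 4.97, 3.95 and 3.06 in WT, 5.60, 6.30 and 5.69 in GasKO and 4.13, 4.05 and 5.39 in hGAS. The GasKO arrays were above all others. It rose in GasKO by log2 1.87 (SE 0.49, adjusted p = 0.0371), a call held in 3 of 9 fits that left out 1 array, with adjusted p up to 0.113 without GasKO replicate 2. Against GasKO, hGAS stood at -1.34 (adjusted p = 0.1) and was called without hGAS replicate 3 (-1.78, adjusted p = 0.0447).

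**Figure D3:**
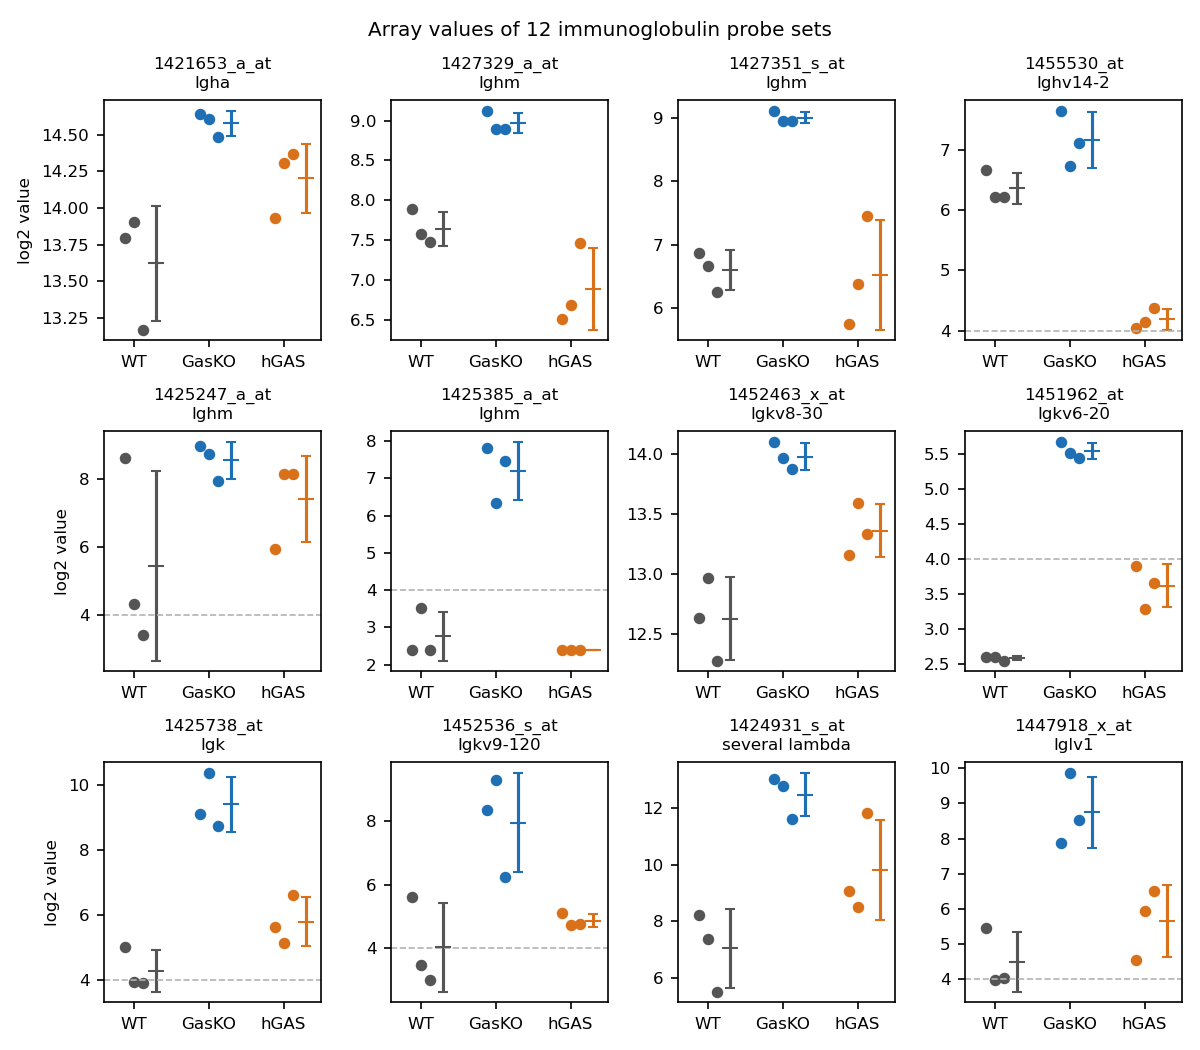
Log2 values of 12 immunoglobulin probe sets on each array (points, replicates 1 to 3 from left to right within a genotype), with the mean and SD of 3 arrays beside them; the dashed line marks log2 4 and each panel has its own vertical scale. The panels of Ighm 1425385_a_at and Igkv6-20 show WT and hGAS below the line and GasKO above it, and the Ighv14-2 panel shows the hGAS arrays between 4.05 and 4.37.

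The 4 kappa light chain probe sets with log2 signals above 11 on every array all rose in GasKO, by 0.70 to 1.35. Of them, 1427455_x_at, 1427660_x_at and 1452417_x_at, are annotated to the same set of kappa symbols, the constant region among them. For 1427455_x_at the arrays read 13.21, 13.34 and 12.61 in WT, 14.18, 14.11 and 14.03 in GasKO and 13.47, 13.81 and 13.84 in hGAS. The groups did not overlap, with hGAS in between. Its rise in GasKO was log2 1.06 (SE 0.17, adjusted p = 0.00377), or 2.08-fold, and those of the other 2 were 0.70 (adjusted p = 0.00769) and 0.84 (adjusted p = 0.0122). In hGAS against WT the changes of these 3 were 0.65, 0.45 and 0.58 (adjusted p from 0.129 to 0.163). For 1427455_x_at, hGAS against GasKO stood at -0.41 (adjusted p = 0.15) and was called without WT replicate 3 (adjusted p = 0.0248).

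Igkv8-30, a kappa variable segment, behaved similarly on 1452463_x_at, with 12.64, 12.97 and 12.28 in WT, 14.10, 13.96 and 13.87 in GasKO and 13.16, 13.60 and 13.33 in hGAS. Each group was separate from the others. The rise in GasKO was log2 1.35 (SE 0.16, adjusted p = 6.31e-04), and hGAS against WT stood at 0.73 (SE 0.16, adjusted p = 0.0849), with a call without WT replicate 2 (0.90, adjusted p = 0.0408) and with the replicate block (adjusted p = 0.0392). The fall in hGAS against GasKO, -0.62 (SE 0.16, adjusted p = 0.0341), held in 3 of 9 fits that left out 1 array, with adjusted p up to 0.12 without hGAS replicate 1.

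Several other kappa probe sets changed by more on the log2 scale. Probe set 1425738_at, annotated to Igk, the symbol of the kappa locus as a whole, read 5.01, 3.94 and 3.90 in WT, 9.10, 10.36 and 8.74 in GasKO and 5.63, 5.13 and 6.62 in hGAS. All GasKO arrays were more than 2 log2 units above any other array. The rise in GasKO was log2 5.12 (SE 0.50, adjusted p = 1.49e-04) and the fall in hGAS against GasKO -3.61 (SE 0.50, adjusted p = 0.00118), or 12.2-fold. Because the WT values of 3.94 and 3.90 were near background, the size of the rise in GasKO depends on that level. In contrast, the other tested Igk probe set, 1452557_a_at, read 4.15, 4.33 and 3.42 in WT and between 4.45 and 4.76 on the 6 other arrays, and was not called in GasKO against WT (0.58, adjusted p = 0.113).

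Igkv6-20 varied little within each genotype. On 1451962_at the WT arrays read 2.60, 2.61 and 2.55, the GasKO arrays 5.67, 5.51 and 5.44 and the hGAS arrays 3.90, 3.29 and 3.66. WT and hGAS were both near background, and all groups were separate. It rose by log2 2.95 in GasKO (SE 0.14, adjusted p = 1.21e-06) and by 1.03 in hGAS (SE 0.14, adjusted p = 0.0164), and it fell by 1.92 in hGAS against GasKO (adjusted p = 1.86e-05). The call in hGAS against WT was lost without WT replicate 3 (adjusted p = 0.0606). This probe set passed the filter through GasKO arrays alone, so the differences of GasKO from the other groups are partly set by the filter. In hGAS against WT both groups were under log2 4, where values are compressed and model-dependent.

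Igkv9-120 was measured by 2 tested probe sets. For 1460423_x_at the values were 8.26, 8.33 and 8.31 in WT, 10.47, 11.07 and 10.48 in GasKO and 9.42, 8.79 and 10.09 in hGAS. Its rise in GasKO was log2 2.37 (SE 0.28, adjusted p = 5.72e-04), and hGAS against WT stood at 1.13 (SE 0.28, adjusted p = 0.11) although no arrays overlapped, and was called without hGAS replicate 2 (1.46, adjusted p = 0.0482). The fall in hGAS against GasKO was -1.24 (adjusted p = 0.0179) and was lost without GasKO replicate 2 or hGAS replicate 1 (adjusted p up to 0.0598).

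The other Igkv9-120 probe set, 1452536_s_at, varied more, at 5.60, 3.49 and 3.00 in WT, 8.33, 9.27 and 6.24 in GasKO and 5.11, 4.75 and 4.76 in hGAS. The lowest GasKO array lay only a little above the highest WT array. Its rise in GasKO of log2 3.91 (SE 0.79, adjusted p = 0.0121) was 3.25 without GasKO replicate 2 and 4.77 without GasKO replicate 3, and the call was lost without GasKO replicate 1 (adjusted p = 0.0525). In hGAS against GasKO the fall was -3.07 (adjusted p = 0.031), -2.41 without GasKO replicate 2 and -3.92 without GasKO replicate 3, and it was called in 4 of 9 such fits.

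Probe set 1451965_at, annotated to 3 kappa variable segments, read 5.21, 6.06 and 4.81 in WT, 8.42, 8.16 and 8.50 in GasKO and 6.08, 5.63 and 5.84 in hGAS. WT and hGAS overlapped, and GasKO was above both. The rise in GasKO was log2 3.00 (SE 0.27, adjusted p = 9.36e-05) and the fall in hGAS against GasKO -2.51 (SE 0.27, adjusted p = 2.61e-04). The probe sets 1427576_at and 1427577_x_at, with the same annotation, rose by only 1.08 (adjusted p = 0.00648) and 1.24 (adjusted p = 0.0217) from near background, and the latter call was lost without WT replicate 3, GasKO replicate 1 or GasKO replicate 2. Both passed the filter through GasKO arrays alone. In hGAS against GasKO 1427576_at fell by 0.83 (adjusted p = 0.0205), a call held in 4 of 9 fits that left out 1 array, while 1427577_x_at stood at -0.90 (adjusted p = 0.064) and was called without WT replicate 3 (adjusted p = 0.0308) or GasKO replicate 3 (-1.20, adjusted p = 0.0212).

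Other kappa probe sets also rose in GasKO. Igkv4-72 (1426201_at) rose by log2 1.68 (adjusted p = 0.00747), Igkv14-111 (1451951_at) by 1.22 (adjusted p = 0.0347) and 1426200_at, with several kappa symbols, by 1.60 (adjusted p = 0.0319). Leaving out any 1 array kept the call of Igkv4-72, whereas Igkv14-111 was called in 2 of 9 such fits and 1426200_at in 5. In hGAS against GasKO none of these 3 was called on all 9 arrays, but Igkv4-72 (-0.89) was called without WT replicate 1 or WT replicate 2, Igkv14-111 (-0.70) without GasKO replicate 3 (-1.11), and 1426200_at (-1.03) without WT replicate 3.

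Not called in GasKO against WT were Igkv15-103 (1427837_at, 2.97, adjusted p = 0.0704), Igkv6-14 (1427860_at, 2.39, adjusted p = 0.106) and Igkv4-68 (1427857_x_at, 1.47, adjusted p = 0.0978). Their arrays of 1 genotype differed widely: Igkv15-103 read 6.17, 3.49 and 7.13 on the hGAS arrays and Igkv6-14 5.84, 8.16 and 4.23 on the WT arrays. Each was called in that comparison with 1 array left out. Igkv15-103 was called without hGAS replicate 2 (2.97, adjusted p = 0.0212), and its change ran from 2.44 to 3.62 over the 9 such fits. Igkv6-14 was called without WT replicate 2 in GasKO against WT (3.43, adjusted p = 0.00796) and in hGAS against WT (3.64, adjusted p = 0.0408), with a range of 1.47 to 3.43 in the former. Igkv4-68 was called without WT replicate 1 in GasKO against WT (2.14, adjusted p = 0.00265) and in hGAS against WT (2.01, adjusted p = 0.0323), with a range of 0.87 to 2.14 in the former.

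All 3 tested lambda light chain probe sets rose in GasKO against WT, by log2 4.05 to 5.41. Probe set 1424931_s_at, with several lambda symbols, the constant region gene Iglc1 among them, read 8.24, 7.38 and 5.53 in WT, 13.03, 12.77 and 11.60 in GasKO and 9.08, 8.52 and 11.84 in hGAS. hGAS replicate 3 lay within the GasKO range, and the other hGAS arrays lay above every WT array and below every GasKO array. The rise in GasKO was log2 5.41 (SE 0.90, adjusted p = 0.00436), or 42.6-fold, and became 4.65 when WT replicate 3 was left out and 6.01 when WT replicate 1 was. Neither hGAS against WT (2.76, adjusted p = 0.212) nor hGAS against GasKO (-2.65, adjusted p = 0.0817) was called. Leaving out hGAS replicate 3 gave a call in hGAS against GasKO (-3.67, adjusted p = 0.0139) and a change of 1.75 in hGAS against WT, the lowest of a range up to 3.41.

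Iglv1, a lambda variable segment, was measured by 1430523_s_at and 1447918_x_at. The former read 9.40, 7.84 and 6.45 in WT, 12.37, 12.28 and 11.19 in GasKO and 9.17, 8.68 and 11.34 in hGAS, with hGAS replicate 3 again within the GasKO range. Its rise in GasKO was log2 4.05 (SE 0.81, adjusted p = 0.0117), and the call was lost without GasKO replicate 1 (adjusted p = 0.0516). Over the fits that left out 1 array the rise ran from 3.33, with WT replicate 3 out, to 4.80, with WT replicate 1 out. The change in hGAS against GasKO was -2.22 (adjusted p = 0.104) and was called with hGAS replicate 3 out (-3.02, adjusted p = 0.0335). For 1447918_x_at the values were 5.47, 3.98 and 4.05 in WT, 7.88, 9.85 and 8.52 in GasKO and 4.54, 5.94 and 6.51 in hGAS. All GasKO arrays were above all hGAS arrays, and it rose in GasKO by 4.25 (SE 0.63, adjusted p = 0.00227) and fell in hGAS against GasKO by -3.09 (SE 0.63, adjusted p = 0.0109).

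The members varied more between arrays of the same genotype than most probe sets. Their residual SD in the fit had a median of 0.53 on the log2 scale, against 0.11 for all probe sets tested, and 28 of the 35 lay above the 95th percentile of all, 0.29. By genotype, the members had a median SD of 0.63 (WT), 0.38 (GasKO) and 0.29 (hGAS), where the medians of all probe sets were 0.097, 0.084 and 0.096. The Igha and kappa constant region probe sets had SDs near the lower end of the members, and the Ighm probe set 1425247_a_at had the largest, at 1.79.

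**Figure D4:**
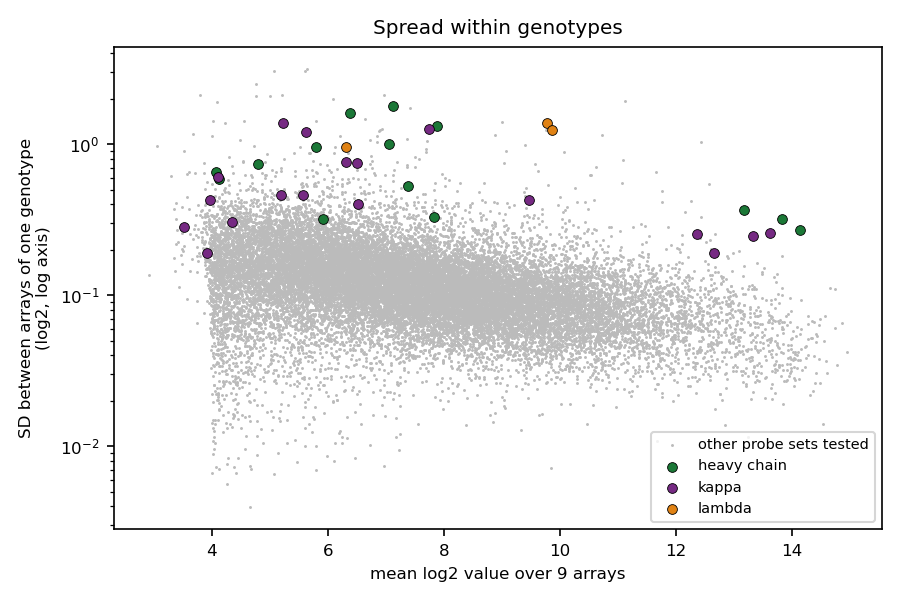
SD between arrays of 1 genotype (residual SD of the fit, log axis) against the mean log2 value over 9 arrays, for all probe sets tested (grey) and for the heavy chain, kappa and lambda members (coloured). Of the 35 coloured points, 28 exceed 0.29, the 95th percentile over all probe sets tested, whatever their level.

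Genes that act beside the antibody chains were read from the same fit, by lists chosen with earlier results of these data known and without a test of any list. To set beside each list, 6.03% of all probe sets tested were called higher and 5.31% lower in GasKO against WT. These shares were 0.376% and 0.385% in hGAS against WT, and 7.09% and 7.8% in hGAS against GasKO. Plasma cell genes (15 of 18 tested) rose for 6 and fell for 1 in GasKO against WT, with a median change of 0.15. Irf4, a transcription factor gene needed for plasma cell differentiation, rose by log2 1.84 (adjusted p = 1.33e-04) from near background, and Tnfrsf13b, the gene of the receptor TACI, by 1.54 (adjusted p = 0.00183). Derl3, an endoplasmic reticulum gene, rose by 0.87. Both Jchain, which joins antibody units into polymeric IgA and IgM, and Mzb1, a chaperone of antibody assembly, also rose, by 1.65 and 2.56. Sdc1 and Xbp1, which epithelial cells express as well, stood at -0.03 (adjusted p = 0.74) and -0.21 (adjusted p = 0.049). The part of epithelium in their values was not tested. Sdc1 was not called, nor were Prdm1 (0.34), Fkbp11 (0.009), Pim2 (0.10), Sec11c (0.15), Creld2 (0.10), Ell2 (0.09) and Txndc5 (-0.05). Their adjusted p ran from 0.186 to 0.991.

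On the arrays Jchain read 11.72, 11.72 and 10.60 in WT, 13.02, 13.09 and 12.86 in GasKO and 12.09, 12.69 and 12.56 in hGAS. The lowest array was again WT replicate 3, and hGAS lay between the other groups without overlap. In hGAS against WT none of the 15 plasma cell genes was called by limma, while 6 were higher and 1 lower at an unadjusted p under 0.05, and Jchain stood at 1.10 (adjusted p = 0.113). With the replicate block 1 of the 15 was called in that comparison. The summed level of the list, as the mean centred value, ran from -0.66 to -0.17 in WT, from 0.24 to 0.43 in GasKO and from -0.18 to 0.09 in hGAS. In hGAS against GasKO, 4 of the 15 fell and 1 rose.

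B cell genes moved in a different order. Of 16 tested (of 22), 9 rose and 0 fell in GasKO against WT, 3 fell and 0 rose in hGAS against WT, and all 16 fell in hGAS against GasKO, with median changes of 0.93, -0.81 and -1.81. The shares of all probe sets called in those directions were 6.03%, 0.385% and 7.8%. The mean centred value ran from -0.11 to 0.25 in WT, from 0.57 to 1.22 in GasKO and from -1.01 to -0.76 in hGAS, so that hGAS was lowest here, as for Ighv14-2. Cd37, a B cell tetraspanin gene, Tnfrsf13c, the BAFF receptor gene, and Btla, an inhibitory receptor gene, rose in GasKO by log2 1.17, 1.18 and 1.47 (adjusted p from 0.00136 to 0.00417). The 3 that fell in hGAS against WT were Fcmr, the IgM receptor gene, by -2.30, H2-Ob by -1.95 and Cd79a, a B cell receptor signalling gene, by -1.76. The call of Fcmr held with any 1 array left out, that of H2-Ob in 6 of 9 such fits and that of Cd79a in 2. With the replicate block 6 of the 16 were called in hGAS against WT. Pax5 and Blk were near background on all arrays. What part B cell number has in the immunoglobulin values was not tested.

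MHC class II genes, which B cells and other antigen-presenting cells use, were called higher in GasKO against WT for 6 of 6 tested, lower in hGAS against WT for 4 and lower in hGAS against GasKO for 6. Cd74, the invariant chain gene, changed by log2 0.63 in GasKO (adjusted p = 1.81e-05) and by -0.53 in hGAS (adjusted p = 0.00219) against WT. Among 8 tested myeloid genes 4 rose and 0 fell in GasKO against WT, among them Cd163 (0.67), Lyz2 (0.52) and Mpeg1 (0.58). The T cell list had 1 gene above the filter, Thy1, which rose by 0.76 in GasKO and is not confined to T cells.

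Of the genes that attract or instruct IgA-producing cells, 11 of 21 were tested, and 4 rose and 1 fell in GasKO against WT. Cxcl13, the gene of a chemokine that draws B cells into follicles, read 7.15, 7.19 and 7.15 in WT, 8.85, 8.64 and 8.68 in GasKO and 6.16, 6.15 and 6.34 in hGAS. The 3 groups were far apart relative to their spread. It rose in GasKO by log2 1.56 (adjusted p = 1.87e-06) and fell in hGAS by -0.95 (adjusted p = 0.00219), and both calls held with any 1 array left out. Itga4, an integrin gene of gut homing, rose by 0.52 in GasKO (adjusted p = 0.0146), a call lost without GasKO replicate 1.

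The retinal dehydrogenase genes, whose product retinoic acid favours IgA switching and gut homing, differed from each other in the comparisons with WT. Aldh1a2 fell by -1.07 in GasKO (adjusted p = 0.00606) and stood at 0.15 in hGAS (adjusted p = 0.794). Aldh1a1 stood at 0.40 in GasKO (adjusted p = 0.135) and rose by 1.34 in hGAS (adjusted p = 0.00688). In hGAS against GasKO both were called higher, Aldh1a1 by 0.94 (adjusted p = 0.00336) and Aldh1a2 by 1.22 (adjusted p = 0.00247). Ccr6, a chemokine receptor gene, rose by 1.05 in GasKO against WT (adjusted p = 0.031). It fell by -1.54 in hGAS against WT (adjusted p = 0.0373), a call held in 1 of 9 fits that left out 1 array. In hGAS against GasKO its fall was -2.585 (adjusted p = 1.61e-04), a call held in 9 of 9 such fits. Ccl28, a chemokine gene for IgA-secreting cells, stood at -0.01 in GasKO and -0.05 in hGAS (adjusted p = 0.941 and 0.823).

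The genes that transport or bind antibodies had 0 of 7 called by limma in GasKO against WT and 0 in hGAS against WT, with 1 higher and 1 lower, respectively, at an unadjusted p under 0.05, while Fcgbp fell by -0.47 (adjusted p = 0.0104) in hGAS against GasKO. Pigr read 13.96, 13.90 and 13.97 in WT, 13.88, 13.88 and 13.95 in GasKO and 13.81, 13.96 and 13.97 in hGAS. Its groups overlapped, with changes of -0.04 and -0.03 against WT (adjusted p = 0.681 and 0.874). Rag1, Rag2, Dntt and Vpreb1, which mark precursor B cells that assemble antibody genes, were near background in every group, and of 6 tested genes of class switching and somatic mutation Trp53bp1 alone was called in GasKO against WT (0.25, adjusted p = 0.0295), in 5 of 9 fits that left out 1 array.

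Genes of epithelium and smooth muscle were read in the same way. Over all probe sets tested, 11.3% were called in GasKO against WT, 0.761% in hGAS against WT and 14.9% in hGAS against GasKO. Of 11 epithelial genes 2 rose in GasKO against WT, Epcam by 0.35 (adjusted p = 4.17e-04) and Krt18 by 0.26 (adjusted p = 0.0434), the latter held in 2 of 9 such fits. Of 7 smooth muscle genes Synm fell by -0.38 (adjusted p = 0.026), held in 5 of 9. In hGAS against WT limma called none of these 18, and 2 epithelial genes were higher and 1 lower at an unadjusted p under 0.05. Cdx2, an intestinal transcription factor gene, stood at 0.93 in that comparison (adjusted p = 0.088), and 1 epithelial gene was called there with the replicate block. Against GasKO, hGAS showed 3 of the 11 epithelial genes lower and 0 higher: Epcam by -0.36 (adjusted p = 3.07e-04), Krt18 by -0.27 (adjusted p = 0.0301) and Tff3 by -0.22 (adjusted p = 0.00196). The call of Krt18 held in 5 of 9 fits that left out 1 array.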

How the data were processed

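RNA of colonic mucosa from 3 WT, 3 GasKO and 3 hGAS samples was hybridised to 1 Affymetrix array each; groups and replicate numbers came from the labels. The authors deposited log2 values made with GCRMA (version not stated), per the submitters' processing notes. GCRMA subtracts a background modelled on probe sequence, applies quantile normalisation and combines the probes of a set, so probe sets near background have compressed, model-dependent values. Scanner files were not used here, and no array depth is defined; the number of arrays limits precision.

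Symbols are those of the platform annotation; of 43 members with 1 symbol, 42 matched RefSeq (GRCm38) by Entrez number and 0 changed. A probe set with several symbols is named by its ID. No genome build is named, so no coordinates are given. Probe sets that are not controls with at least 3 arrays at log2 4 were tested (23136) with limma 3.58.1 in R 4.3.3 (files read with data.table, version 1.17.8): genotype as the only term on 9 arrays, eBayes with trend, 2-sided tests, Benjamini-Hochberg over all tested, called under 0.05. The fit was tested on simulated data. Genes of the lists were represented by the probe set with the highest mean. Named were all constant region probe sets, up to 5 called members per class, direction and comparison with the largest change and no overlap, and up to 3 called genes per list by smallest p. Other genes of the lists, and members outside these rules, were chosen after their values were seen. Members and lists were chosen with earlier results of these data known. Same-numbered arrays were checked for shared deviations from the group means. The correlations were above 0 in all 9 pairs and exceeded 0.1 in 7, in every pair for WT with hGAS only. Alternatives covered the filter, normalisation, probe set choice, eBayes settings, array weights, 6-array fits, thresholds, a replicate block and leaving out each array. Figures used matplotlib 3.10.9 in Python 3.11.15.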

Additional observations from a re-analysis of the deposited data

How the results depend on the processing

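With median centring or quantile normalization of the arrays, no filter, no variance trend, robust eBayes or array weights, the counts of called members stayed within 1.5 times of those reported (for GasKO vs WT, 22 to 26). Using 1 probe set per gene left 14 members to test, with 10 called in GasKO vs WT, 6 in hGAS vs GasKO and 9 by the F test. Probe sets designed for 1 transcript gave 9, 6 and 7, and an adjusted p under 0.01 gave 17, 7 and 12. For hGAS vs WT the count was 1 with the filter at log2 6, with only the 6 arrays compared, with an adjusted p under 0.01 and with a filter on the mean of 9 arrays at log2 4, the last chosen after seeing the data; with that filter 23 were called in GasKO vs WT. Leaving out 1 array gave 18 to 30 calls in GasKO vs WT, 1 to 4 in hGAS vs WT, 8 to 19 in hGAS vs GasKO and 12 to 28 by the F test, and a median residual SD of 0.47 to 0.58. Without a filter that SD was 0.31, since members at background then enter it. The cause of the other shifts was not tested. Counts of calls under other settings, here and elsewhere, are given without the share of all probe sets called under the same setting. That share can differ from the main fit, so a shift in a count is not read as particular to the members.

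Changes of sign all concerned values that were not called. In hGAS vs WT, Ighm 1427351_s_at stood at 0.0498 with array weights. Left-out arrays gave it 0.063 (without WT replicate 1), 0.32 (without hGAS replicate 1) and 0.0035 (without hGAS replicate 2), in a range of -0.54 to 0.32, and gave Ighm 1452535_at -0.85 to 0.75, the latter without WT replicate 2. In hGAS vs GasKO the range was -0.23 to 0.0020 for Igkv4-68 and -0.10 to 0.073 for Igk 1452557_a_at, both upper values without GasKO replicate 1. The same Igk probe set was at 0.0077 without hGAS replicate 1 and 0.0084 without hGAS replicate 3. Igkv6-14 ran from -0.19 (without hGAS replicate 1) to 0.74 and Igkv15-103 from -1.68 to 0.13 (without hGAS replicate 2).

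Same-numbered arrays deviated together in all 9 pairs (correlations 0.010 to 0.19) and over 0.1 in 7: in 3 of 3 pairs of WT with hGAS, but in 2 of 3 of WT with GasKO and of GasKO with hGAS. The 18 other pairs ran from -0.24 to 0.092. By groups the correlations were 0.113 to 0.193 for WT with hGAS, 0.0851 to 0.189 for GasKO with hGAS and 0.0103 to 0.142 for WT with GasKO. With 3 pairs each, these ranges do not settle which groups the numbers pair, and the labels are silent on it. The main fit left the replicate number out for every comparison. With the number as a replicate block, 25, 3 and 15 members were called in GasKO vs WT, hGAS vs WT and hGAS vs GasKO, and 25 by the F test. The block ended the call of 1427851_x_at in GasKO vs WT (adjusted p = 0.0595) and gave calls in hGAS vs GasKO to Igkv4-72 (adjusted p = 0.0377) and 1427577_x_at (adjusted p = 0.00862).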
